A study of Mus musculus with 6 samples.

Results

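A set of 36 mouse genes of DNA repair and its checkpoints was followed through neural stem cells and their differentiated progeny. The members were taken by symbol: 36 of the 29267 genes in the deposited tables, all 36 with enough counts to be tested. By role, 23 act in homologous recombination and the Fanconi pathway, 6 in damage sensing and checkpoint signalling, 2 in repair of single-strand breaks, and 5 in end joining or mismatch repair. The cells were neural stem cells of the OG2 strain, mice that carry a green fluorescent reporter of Oct4, at passage 8 in every group. D2 cells had been differentiated (the label reads D2, with no unit) with naloxone, an opioid receptor antagonist, with DAMGO, a peptide that activates mu opioid receptors, or without ligand. NSC cells were kept as stem cells under the same 3 conditions, and RNA was sequenced from 1 library in each of the 6 groups. The sources used here do not give doses, exposure times or the number of cultures behind a library. With no replicate in any group, the 3 D2 libraries were set against the 3 NSC libraries, and ligands were compared across both states. The p-values therefore reflect spread among these 6 libraries alone, which may be technical.

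Homologous recombination repairs broken chromosomes by copying an intact sister chromatid, and is therefore used mainly in S and G2 phase. The Fanconi pathway opens crosslinks that block replication forks and hands the break to recombination. End joining ligates broken ends directly and works in dividing and resting cells alike, while mismatch repair corrects errors left by the replicative polymerases. Many recombination genes are known targets of E2F factors and of the DREAM complex, which silences cell cycle genes in resting cells.

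The libraries held 8417074 to 13561237 expected counts. Markers moved with state: the proliferation gene Mki67 stood at 6.77 ± 2.14 TPM in D2 and 328 ± 7.85 TPM in NSC, the progenitor filament Nes at 147 ± 4.22 and 668 ± 6.18 TPM, and the astrocyte filament Gfap at 8.19 ± 2.12 and 0.153 ± 0.0635 TPM (SD over the 3 ligand conditions). TPM is a level scaled to transcript length and library size. Summed astrocyte markers (8 of 8 rose) lay at 5010 to 5270 normalised CPM (counts scaled to library size) in D2 and 879 to 919 CPM in NSC, and summed markers of the oligodendrocyte lineage (8 genes, 6 rose and 1 fell) at 1620 to 1800 and 201 to 224 CPM. Neuronal markers (3 of 5 tested rose, 1 fell) summed to 1210 to 1350 CPM in D2 and 1100 to 1160 CPM in NSC, and the 8 stem cell markers (6 rose and 2 fell) to 6450 to 6950 and 7770 to 7940 CPM. Markers of other cells were low: microglia at 0.113 to 0.354 CPM in D2 and 1.32 to 1.98 CPM in NSC with 2 of 6 genes at 0 counts throughout, endothelium at 3.07 to 4.02 and 3.63 to 4.71 CPM, fibroblasts and pericytes at 10 to 20.1 and 0.55 to 10 CPM, ependyma at 25.3 to 28.1 and 5.94 to 7.26 CPM, and pluripotent cells at 1.96 to 4.25 and 14.9 to 16.6 CPM.

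Most of the 36 transcripts fell in D2 cells, and the sizes of the falls were uneven between the members' roles. Of the 36 members, 35 fell and 1 rose in D2 against NSC (edgeR quasi-likelihood test, adjusted p under 0.05). Among all 13216 genes tested, 39.8% fell and 40.0% rose. The median log2 fold change of the 36 was -2.41, and the median over all genes tested was 0. The 23 recombination and Fanconi genes all fell, with a median of -2.62 and a range from -3.80 to -0.29. Of the 5 end joining and mismatch genes 4 fell and 1 rose, with a median of -0.47 and a range from -1.40 to 0.52. The 6 sensing and checkpoint genes all fell (median -2.61), and both single-strand break genes fell less (median -0.56). In the naloxone, DAMGO and control pairs of libraries the recombination median was -2.49, -2.65 and -2.78, the end joining and mismatch median was -0.54, -0.43 and -0.45, and the difference between the medians was -1.95, -2.22 and -2.33. The members were chosen with results of these data known, so these counts describe the list and no test compares the role groups. In bulk RNA, fewer cells with a transcript and less of it per cell cannot be told apart.

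**Figure D1:**
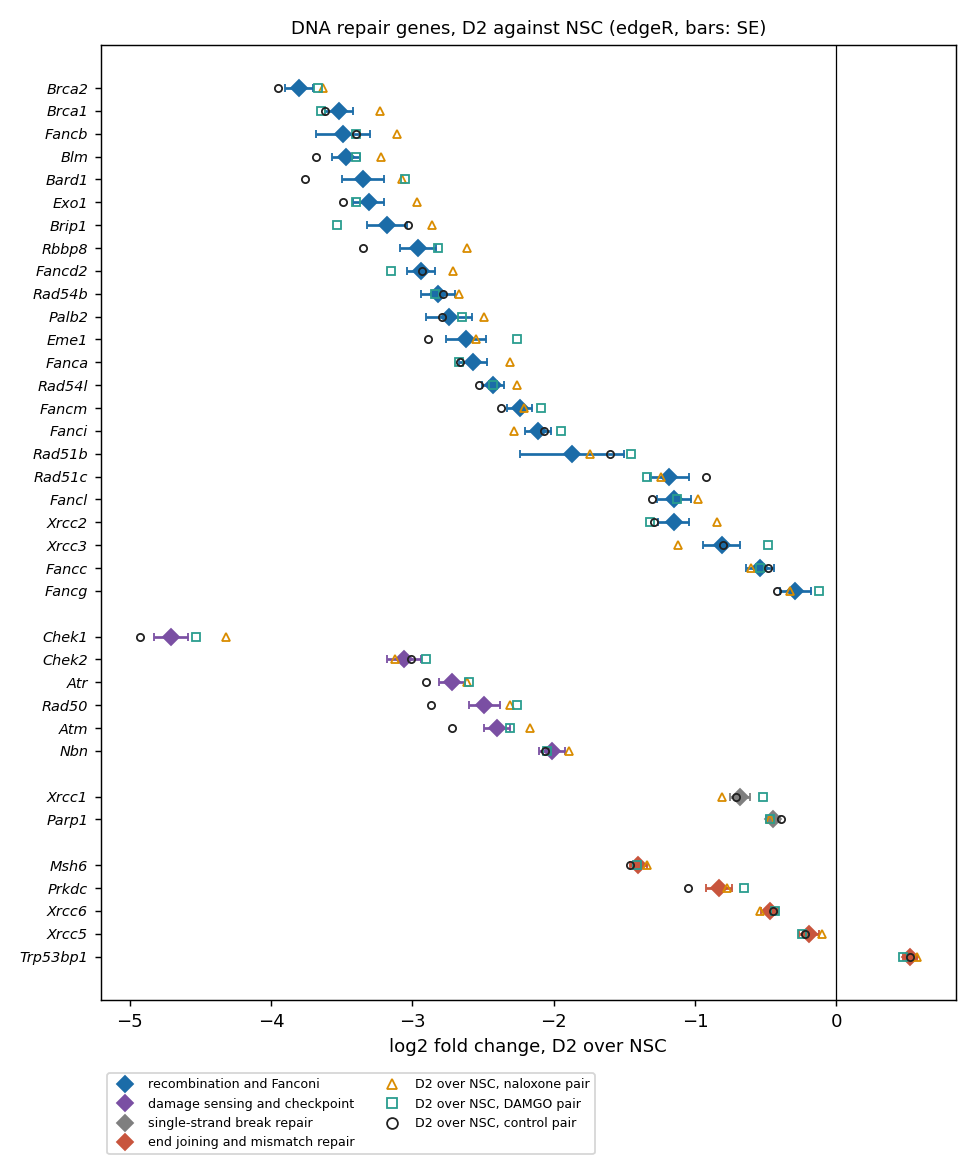
Log2 fold change of each of the 36 genes in D2 over NSC (x axis), grouped by role; diamonds with bars are the edgeR estimate and its SE, and open symbols the ratio of 1 D2 to 1 NSC library for naloxone, DAMGO and control. Recombination and checkpoint genes reach down to -4.71, end joining and mismatch genes stay between -1.40 and 0.52, and Trp53bp1 is the only gene right of 0.

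The BRCA genes, which prepare broken ends for strand exchange, were among those that fell most. Brca2, which acts at resected ends, had 1.22, 1.05 and 0.9 TPM in the D2 libraries with naloxone, with DAMGO and without ligand, against 15.3, 13.9 and 14.4 TPM in the matching NSC libraries (log2 fold change -3.80, SE 0.10, edgeR adjusted p = 9.77e-12). Brca1, a ubiquitin ligase that promotes end resection, had 5.67, 4.42 and 4.85 TPM in the D2 libraries with naloxone, with DAMGO and without ligand, against 35, 37.2 and 34.2 TPM in the matching NSC libraries (log2 fold change -3.52, SE 0.10, edgeR adjusted p = 1.33e-11). Every D2 library lay far below every NSC library for both genes. Their partners also fell: Bard1, which pairs with Brca1 (-3.35, SE 0.15), Palb2, which bridges Brca1 and Brca2 (-2.74, SE 0.16), the helicase Brip1 (-3.18, SE 0.14) and the resection factor Rbbp8 (-2.96, SE 0.13), each with an edgeR adjusted p of at most 9.67e-09.

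Nucleases, helicases and the motor proteins of recombination fell by similar amounts. Exo1, an exonuclease that resects ends and also acts in mismatch repair, had 12.2, 9.93 and 6.1 TPM in the D2 libraries with naloxone, with DAMGO and without ligand, against 93.5, 93.9 and 83.6 TPM in the matching NSC libraries (log2 fold change -3.31, SE 0.11, edgeR adjusted p = 5.21e-11). In both states its control library was the lowest of the 3. Blm, the helicase that dissolves crossed DNA strands (-3.47, SE 0.10), the translocases Rad54b (-2.82, SE 0.12) and Rad54l (-2.43, SE 0.08), and Eme1, a subunit of structure-cutting nucleases (-2.62, SE 0.14), all fell (edgeR, adjusted p at most 5.87e-09). Of the exonic bases of Rad54b, 35.9% are shared with other annotated genes, Fsbp on the same strand among them, so reads may have been divided between them.

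Xrcc2, Xrcc3, Rad51b and Rad51c, related genes whose products act in strand exchange, fell less than the BRCA genes. Xrcc2 had 12.5, 9.78 and 9.09 TPM in the D2 libraries with naloxone, with DAMGO and without ligand, against 21.6, 24.5 and 21.9 TPM in the matching NSC libraries (log2 fold change -1.15, SE 0.11, edgeR adjusted p = 1.25e-06), so that its levels in the 2 states did not overlap but differed by little more than 2-fold. Rad51c (-1.18, SE 0.14) and Xrcc3 (-0.81, SE 0.13) fell similarly. Rad51b fell with a wide error (log2 fold change -1.87, SE 0.37, edgeR adjusted p = 0.000591), and it averaged 14.8 counts a library, the fewest of the 36. Rad51d, a related gene outside the 36, rose (log2 fold change 0.43, SE 0.10, edgeR adjusted p = 0.00129).

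Within the Fanconi pathway the change ran from one of the largest falls to nearly none. Fancd2, which with Fanci forms the clamp that is ubiquitinated at a blocked fork, had 4.84, 2.91 and 4.77 TPM in the D2 libraries with naloxone, with DAMGO and without ligand, against 37.1, 31 and 38 TPM in the matching NSC libraries (log2 fold change -2.94, SE 0.10, edgeR adjusted p = 5.68e-11). Fanci fell as well (-2.11, SE 0.09). Of the core complex, which carries out that ubiquitination, Fancb (-3.49, SE 0.19, on 10 to 12 counts in each D2 library), Fanca (-2.57, SE 0.10) and the translocase Fancm (-2.24, SE 0.09) fell at least 4-fold, and the ligase subunit Fancl (-1.15, SE 0.12) and Fancc (-0.54, SE 0.10) less. Fancg, another core subunit, had 15.1, 17.5 and 10.4 TPM in the D2 libraries with naloxone, with DAMGO and without ligand, against 22, 17.4 and 16.2 TPM in the matching NSC libraries (log2 fold change -0.29, SE 0.11, edgeR adjusted p = 0.0313). Its D2 and NSC libraries overlapped, and the call was lost in 10 of 17 alternative settings, with adjusted p between 0.0502 and 0.21.

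**Figure D2:**
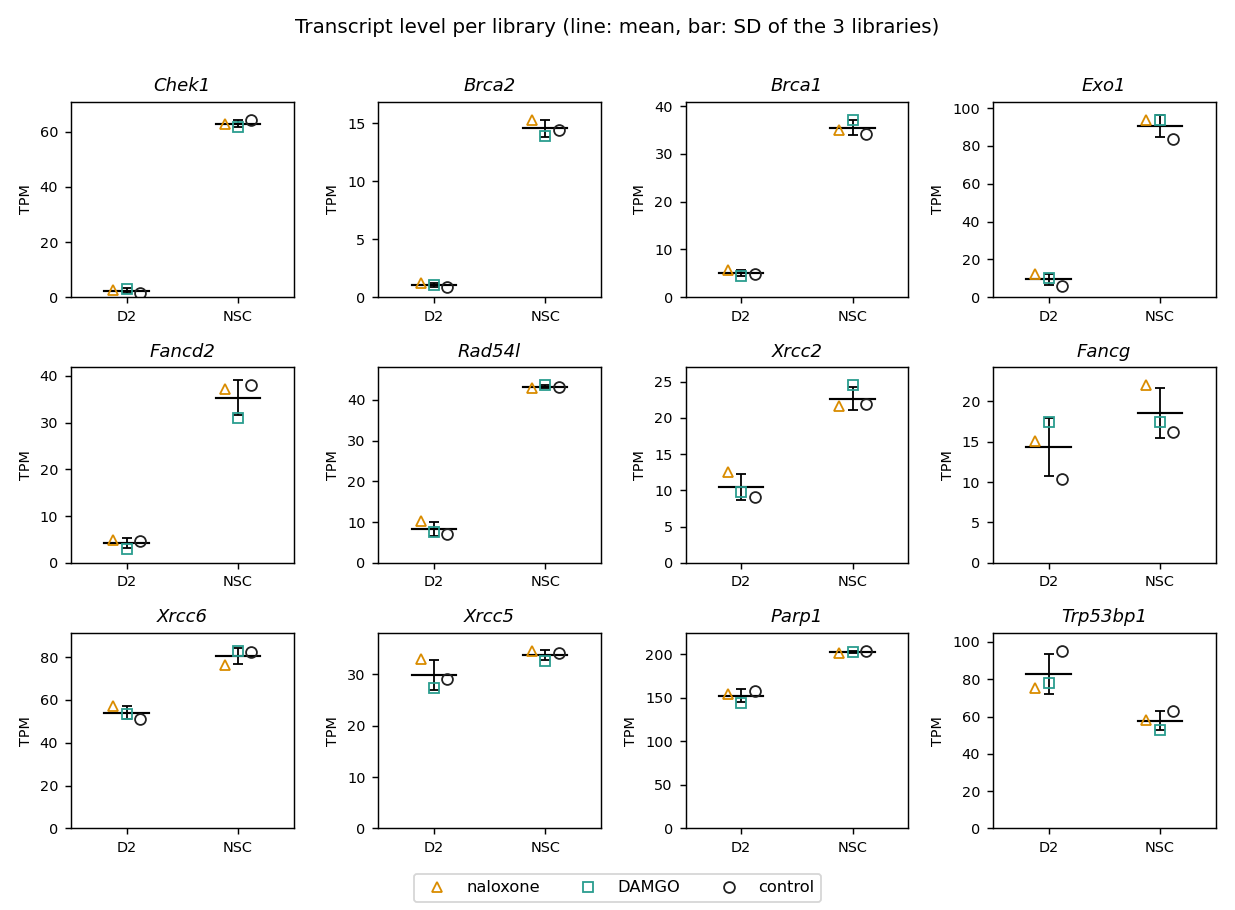
Level in TPM (y axis, from 0) of 12 of the genes in each library, D2 left and NSC right, with symbols for naloxone, DAMGO and control, lines for the mean and bars for the SD of the 3 libraries. Chek1, Brca2, Brca1, Exo1, Fancd2 and Rad54l are near the bottom of the axis in D2, while the levels of Fancg overlap between the states and Trp53bp1 is higher in D2.

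Checkpoint kinases fell together, and 1 of them more than any other member. Chek1, the kinase that restrains mitosis when forks stall, had 2.65, 2.98 and 1.48 TPM in the D2 libraries with naloxone, with DAMGO and without ligand, against 62.7, 61.7 and 64.4 TPM in the matching NSC libraries (log2 fold change -4.71, SE 0.12, edgeR adjusted p = 1.08e-11). Its D2 libraries rested on only 23, 21 and 20 counts, against 786, 539 and 694 in NSC. Chek2, the kinase downstream of Atm (-3.06, SE 0.12), the sensor kinases Atr (-2.72, SE 0.09) and Atm (-2.40, SE 0.09) and Rad50, a subunit of the complex that first binds a broken end (-2.49, SE 0.11), also fell (edgeR, adjusted p at most 1.23e-09). Nbn, of the same complex, fell least of the 6: it had 12, 10.7 and 11 TPM in the D2 libraries with naloxone, with DAMGO and without ligand, against 43.8, 45 and 46.5 TPM in the matching NSC libraries (log2 fold change -2.01, SE 0.09, edgeR adjusted p = 5.9e-10).

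Single-strand break and end joining genes stayed closer to their level in NSC. Msh6 alone stands for mismatch repair among the 5 end joining and mismatch genes. It fell more than some recombination genes, such as Rad51c (-1.18) and Xrcc2 (-1.15). Parp1, the most abundant of the 36 in both states, which marks breaks with ADP-ribose chains, had 155, 144 and 158 TPM in the D2 libraries with naloxone, with DAMGO and without ligand, against 202, 203 and 204 TPM in the matching NSC libraries (log2 fold change -0.45, SE 0.05, edgeR adjusted p = 3.01e-06). Xrcc1, the scaffold of single-strand break repair, had 39.1, 44.6 and 39.5 TPM in the D2 libraries with naloxone, with DAMGO and without ligand, against 67, 64.6 and 64.7 TPM in the matching NSC libraries (log2 fold change -0.68, SE 0.07, edgeR adjusted p = 3.14e-06). Of the Ku subunits, which cap broken ends, Xrcc6 had 57.2, 53.6 and 51.2 TPM in the D2 libraries with naloxone, with DAMGO and without ligand, against 76.2, 82.9 and 82.6 TPM in the matching NSC libraries (log2 fold change -0.47, SE 0.06, edgeR adjusted p = 2.27e-05). Xrcc5 had 33, 27.4 and 29.2 TPM in the D2 libraries with naloxone, with DAMGO and without ligand, against 34.6, 32.6 and 34.1 TPM in the matching NSC libraries, with 1 D2 library above the lowest NSC library (log2 fold change -0.19, SE 0.07, edgeR adjusted p = 0.0367). The Xrcc5 call was lost in 10 of 17 alternative settings, with adjusted p between 0.0893 and 0.22. Prkdc, the kinase that Ku recruits, fell (-0.83, SE 0.09). Msh6, the mismatch recognition subunit, had 32.7, 30.3 and 28.6 TPM in the D2 libraries with naloxone, with DAMGO and without ligand, against 80.9, 81.4 and 78.7 TPM in the matching NSC libraries (log2 fold change -1.40, SE 0.06, edgeR adjusted p = 3.92e-10), the largest fall of these 5. Trp53bp1, which shields ends from resection and so favours end joining, rose: it had 75.2, 78.2 and 95.2 TPM in the D2 libraries with naloxone, with DAMGO and without ligand, against 58.2, 52.6 and 62.7 TPM in the matching NSC libraries (log2 fold change 0.52, SE 0.05, edgeR adjusted p = 1.37e-06). Its groups did not overlap, and 15.0% of its exonic bases are shared with another gene.

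The makeup of the repair transcripts differed between the states. Recombination and Fanconi genes held 25.4%, 24.6% and 21.8% of the summed TPM of the 36 genes in D2 with naloxone, with DAMGO and without ligand, against 45.0%, 44.7% and 43.4% in NSC. Sensing and checkpoint genes held 6.55%, 7.19% and 5.2% in D2 and 16.7%, 17.7% and 17.6% in NSC. End joining and mismatch genes held 34.8%, 34.6% and 37.5% in D2, against 18.8%, 18.4% and 19.4% in NSC, and Parp1 with Xrcc1 held 33.2%, 33.5% and 35.5% in D2, against 19.5%, 19.2% and 19.5% in NSC. The sum over all 36 was 584, 562 and 556 TPM in D2, against 1380, 1400 and 1370 TPM in NSC. The sums of the roles with larger shares in D2 were also lower there. End joining and mismatch genes summed to 203, 195 and 208 TPM in D2, against 258, 257 and 267 TPM in NSC. Parp1 with Xrcc1 summed to 194, 188 and 197 TPM in D2, against 269, 268 and 268 TPM in NSC.

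Proteins that work as partners did not always have transcripts that fell together. The log2 ratio of the counts of both partners was taken within each library, which removes library scaling, for 11 pairs chosen after their values were seen. An exact permutation test of 3 libraries against 3 cannot go below p = 0.1, two-sided; it gave 0.5 for Brca1 over Bard1 and 0.1 for each other pair, and, with pairs chosen so, supports nothing. Brca1 over Bard1 was the pair with the smallest change, at 1.27 ± 0.36 in D2 and 1.48 ± 0.04 in NSC (SD over 3 ligand conditions), and its groups overlapped. Eme1 over its nuclease partner Mus81 was -2.96 ± 0.17 in D2 and -0.38 ± 0.06 in NSC, and Mus81 itself did not pass the test between the states (0.01, SE 0.08). Rad50 over Mre11a, the nuclease of the same complex, was -1.59 ± 0.30 in D2 and -0.05 ± 0.03 in NSC, and Atr over its partner Atrip was -1.49 ± 0.12 in D2 and 1.44 ± 0.11 in NSC. Fanca over Fancg was -0.74 ± 0.21 in D2 and 1.52 ± 0.21 in NSC, Fancb over Fancl was -2.60 ± 0.15 and -0.45 ± 0.11, and Brca2 over Palb2 was 1.03 ± 0.05 and 2.14 ± 0.06. The pair that changed most was Rif1 over Trp53bp1, at -4.16 ± 0.39 in D2 and 0.04 ± 0.04 in NSC: Rif1, which acts at ends marked by Trp53bp1, fell (-3.69, SE 0.11) while Trp53bp1 rose. Fancd2 over Fanci differed by -0.83, Rad51c over Xrcc3 by -0.36 and Xrcc6 over Xrcc5 by -0.29 between the state means. In each pair other than Brca1 over Bard1, all D2 libraries lay below all NSC libraries.

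**Figure D3:**
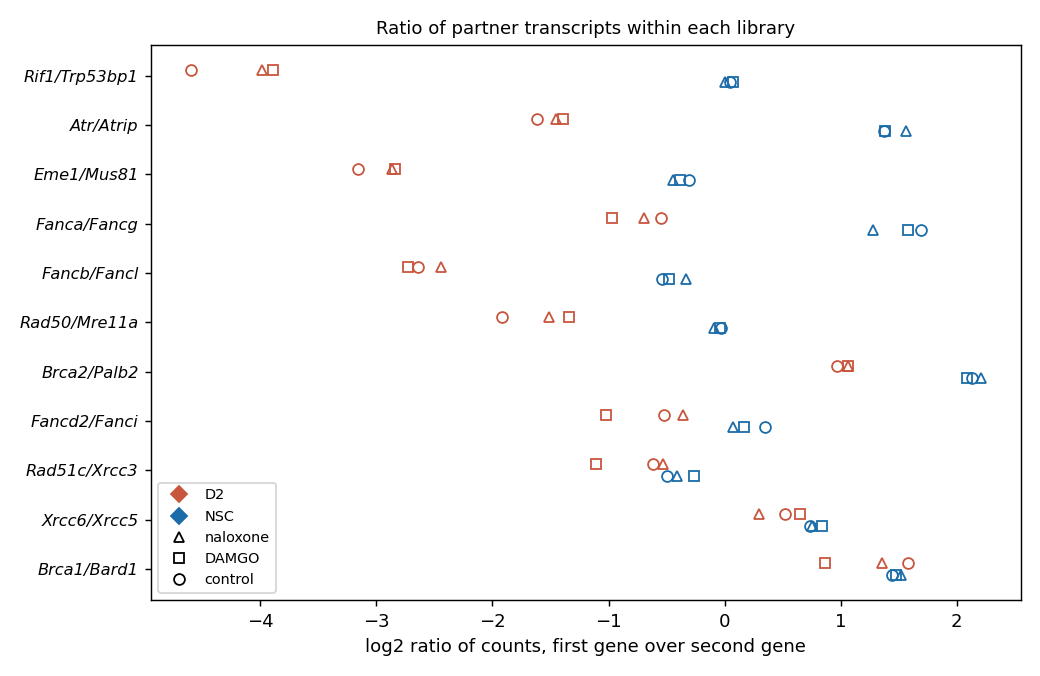
Log2 ratio of the counts of a gene to those of its partner (x axis) in each library, D2 in red and NSC in blue, with symbols for naloxone, DAMGO and control. Brca1 over Bard1 overlaps between the states, and Rif1 over Trp53bp1 is 4.20 lower in D2.

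Promoter sequence was examined because the members moved together and E2F sites are known in recombination genes. RefSeq promoters (GRCm38.p6) were held for 28 of the 36 genes, and the 250 bases before each start were searched on both strands. E2F motifs (TTTGGCGC, TTTCGCGC, TTTGGCGG or TTTCCCGC) lay in 5 of the 28 (17.9%), against 4.17% of the promoters of genes tested and 2.26% of all promoters. The cell cycle homology region (TTTGAA or TTCGAA) lay in 2 (7.14%), against 14.2% and 19.6%, the CCAAT box (CCAAT) in 15 (53.6%), against 41.2% and 37.5%, and the NRF1 motif (GCGCATGC) in 3 (10.7%), against 5.2% and 2.56%. No motif contains another. The stretches with an E2F match are shown, with E2F and cell cycle homology motifs in capitals, followed by Brca1 and Trp53bp1, which hold neither. Only bases outside annotated exons are given, except for Fancg and Xrcc6, where 30 bases around a match inside an annotated exon are given.
Brca2, chr5:150522371-150522620, + strand: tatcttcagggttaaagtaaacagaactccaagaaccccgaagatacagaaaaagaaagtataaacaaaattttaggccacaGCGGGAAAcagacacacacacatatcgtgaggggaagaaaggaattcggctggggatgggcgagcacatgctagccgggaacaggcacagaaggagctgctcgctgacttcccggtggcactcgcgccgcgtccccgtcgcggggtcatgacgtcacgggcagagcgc
Bard1, chr1:71103147-71103222, - strand: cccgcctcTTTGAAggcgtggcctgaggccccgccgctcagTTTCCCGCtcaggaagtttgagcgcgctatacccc
Chek2, chr5:110839778-110839978, + strand: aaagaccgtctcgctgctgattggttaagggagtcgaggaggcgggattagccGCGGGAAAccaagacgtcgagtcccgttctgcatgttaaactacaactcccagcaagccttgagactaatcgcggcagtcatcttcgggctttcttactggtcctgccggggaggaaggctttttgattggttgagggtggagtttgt
Fancg, chr4:43010335-43010364, - strand: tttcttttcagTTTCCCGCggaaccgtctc
Xrcc6, chr15:82016312-82016341, + strand: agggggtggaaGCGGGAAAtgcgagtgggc
Brca1, chr11:101551956-101552148, - strand: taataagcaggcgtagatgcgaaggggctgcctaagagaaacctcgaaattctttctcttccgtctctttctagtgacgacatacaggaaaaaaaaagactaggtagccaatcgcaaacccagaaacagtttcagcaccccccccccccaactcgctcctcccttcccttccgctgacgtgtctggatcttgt
Trp53bp1, chr2:121271408-121271657, - strand: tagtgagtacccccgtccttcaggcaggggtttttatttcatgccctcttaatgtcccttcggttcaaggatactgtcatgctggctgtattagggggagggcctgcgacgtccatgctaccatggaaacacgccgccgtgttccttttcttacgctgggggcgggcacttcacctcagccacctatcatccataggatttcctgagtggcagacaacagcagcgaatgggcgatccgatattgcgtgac
A match to the same E2F letters was thus held by genes that fell strongly, Brca2, Bard1 and Chek2, and by Xrcc6 and Fancg, whose log2 fold changes were -0.47 and -0.29. Measured from the start site, the matches began at -168 in Brca2, -209 in Bard1, -152 in Chek2, -52 in Fancg and -46 in Xrcc6, and Bard1 also held a cell cycle homology motif at -242. Brca1 (-3.52), Blm (-3.47) and Chek1 (-4.71) held no E2F match in this window. The windows of Chek1 and some other genes lay inside the annotated gene, and that of Blm partly so. Bases before the outermost annotated start of Chek1 were therefore not searched. A match is a description of letters and not a bound site.

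Repair genes outside the 36, 112 in lists drawn up by pathway, had a smaller median fall. Of the 111 tested, 67 fell, 28 rose and 16 did not pass (edgeR, adjusted p under 0.05), with a median log2 fold change of -0.47. Among all genes tested 39.8% fell and 40.0% rose, so a list that splits near these shares is like genes at large. Of 41 other recombination and Fanconi genes 25 fell and 9 rose (median -0.40), where all 23 members of that role fell. Rad51ap1, an accessory factor of strand exchange (-3.59, SE 0.10), and the resolvase Gen1 (-3.20, SE 0.14) fell most, and the helicase Fbh1 (0.89, SE 0.06) and the nuclease subunit Eme2 (0.84, SE 0.08) rose most. Of 15 other end joining genes 6 fell and 4 rose (median -0.11), from Polq, the polymerase of a microhomology route (-3.87, SE 0.10), and Rif1 to Paxx, a Ku-binding factor (1.19, SE 0.11), and Mad2l2, a subunit of shieldin (1.33, SE 0.06). Of 6 other mismatch genes 5 fell and 1 rose (median -0.53), from Pms1 (-2.45, SE 0.16) to Mlh3 (0.30, SE 0.12), the only rise. Of 15 other signalling genes 11 fell and 4 rose (median -1.35), with the Chek1 activators Clspn (-3.61, SE 0.08) and Tipin (-2.71, SE 0.07) lowest and Rad9b (0.87, SE 0.17) and the ubiquitin ligase Rnf8 (0.60, SE 0.07) highest. Base excision genes split, 9 down and 4 up of 15, from the glycosylases Neil3 (-3.59, SE 0.13) and Ung (-3.42, SE 0.15) to Neil1 (0.78, SE 0.16) and Aptx (1.02, SE 0.08). Nucleotide excision genes split near the shares of all genes, 6 down and 5 up of 13. They ran from Cetn2 (-1.12, SE 0.07) to the damage recognition genes Xpa (0.99, SE 0.11) and Ddb2 (1.52, SE 0.17). Of 6 translesion genes 5 fell (median -1.80), with Rad18 (-2.98, SE 0.10) and the polymerase Rev3l (-2.38, SE 0.10) lowest and Poli (0.44, SE 0.14) the only rise.

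**Figure D4:**
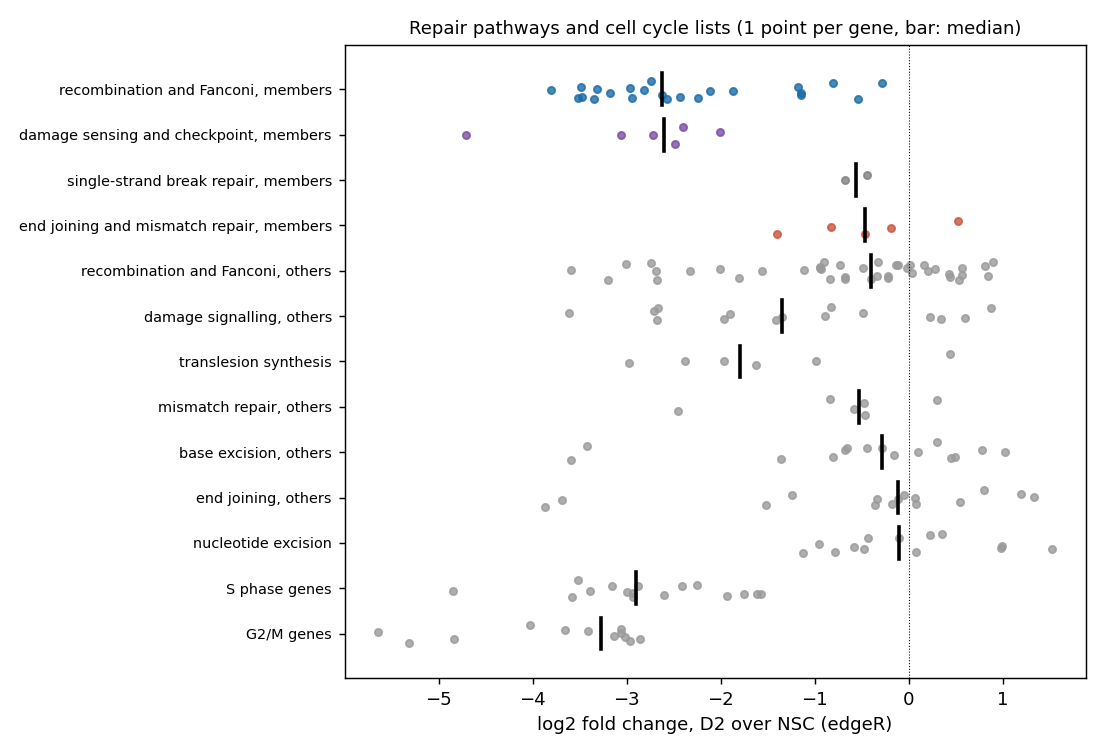
Log2 fold change in D2 over NSC (x axis) of each gene in the 4 role groups of members, in the lists of other repair genes and in 2 cell cycle lists; a point is a gene and a bar the median of its list. The medians are -2.62 for recombination and -2.61 for checkpoint members, -2.90 for S phase genes and -3.27 for G2/M genes. Recombination members reach up to -0.29, above the highest S phase (-1.57) and G2/M (-2.86) genes. The other end joining and nucleotide excision genes are spread around 0.

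Cell cycle transcripts moved in the same direction. All 16 S phase genes fell (median -2.90, from -4.85 to -1.57) and all 12 genes of G2/M fell (median -3.27, from -5.64 to -2.86), and summed G2/M transcripts lay at 327 to 370 CPM in D2 and 5020 to 5060 CPM in NSC. Of 20 genes of E2F, RB and DREAM factors 15 fell, 2 rose and 3 did not pass (edgeR, adjusted p under 0.05). The repressor E2f7 (-3.13, SE 0.12) and the activator E2f1 (-2.44, SE 0.12) fell. Subunits of DREAM were divided. Rbl2 (0.83, SE 0.07) and Lin52 (1.14, SE 0.11) were the 2 rises of the list. Others fell, among them Rbl1 (-2.62, SE 0.07), Lin54 (-2.31, SE 0.10) and Lin9 (-2.16, SE 0.10), and Lin37 (0.14, SE 0.12) and Rbbp4 (0.03, SE 0.04) did not pass. The part of cell division in the repair genes' fall was not tested. Among 12 housekeeping genes 9 fell and 1 rose, with a median of -0.35, close to the fall of Xrcc6 and Parp1 (-0.47 and -0.45).

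Neither ligand changed a member past the threshold over the 2 states. For naloxone against control, DAMGO against control and naloxone against DAMGO, edgeR called 0 of the 36 in each, where 0.0151%, 0.0151% and 0.0303% of all genes were called, and 1 member in each had an unadjusted p under 0.05, as had 293, 317 and 280 of all 13216 genes. DESeq2 called 0 members in each as well. The median SE of a member's ligand log2 fold change was 0.12, and a ligand effect unlike between D2 and NSC would add to the error of this fit. Fancg was the member with an unadjusted p under 0.05 for naloxone (log2 fold change 0.46, edgeR adjusted p = 1) and for DAMGO (0.43, edgeR adjusted p = 1). Both comparisons share the control libraries, and Fancg lay above control with each ligand in each state (log2 ratios 0.50 and 0.58 in D2, 0.41 and 0.28 in NSC). Between naloxone and DAMGO it was Chek2 (-0.36, edgeR adjusted p = 1).

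In D2, most members were higher in either ligand library than in the control library. The median log2 ratio of the 36 was 0.28 for naloxone and 0.17 for DAMGO over control in D2, against 0 for all genes. Of the 36, 28 and 27 lay above 0, where 50% and 49.7% of all genes did. In NSC the medians were 0.02 and 0.01, with 22 and 20 above 0, where 48.8% and 48.2% of all genes were. These are single libraries, and in each state both ratios share 1 control library, so they are values without a replicate check. An exact 95% interval of the count ratio, scaled by library size and for counting error only, lay above 1 for 7 members and below 1 for 0 with naloxone in D2, where it did so for 10.7% and 10.3% of all genes. With DAMGO in D2 the interval lay above 1 for 4 and below 1 for 1 (8.48% and 8.25% of all genes). With naloxone in NSC the counts were 2 and 4 (4.0% and 4.91%), and with DAMGO in NSC 0 and 1 (3.59% and 4.19%). Rad50 was highest above its control in D2 with DAMGO, 102 counts against 71 and a ratio of 1.66 (interval 1.21 to 2.28), and with naloxone it had 88 counts and a ratio of 1.49 (1.08 to 2.07). Rbbp8 had 65 counts with naloxone in D2 against 50 in its control, a ratio of 1.57 (1.07 to 2.31), and Exo1 had 78 against 61, a ratio of 1.54 (1.09 to 2.19). Beside these values, the median D2 ratio over control of the S phase list was 0.03 with naloxone and 0.02 with DAMGO, and that of the G2/M list was 0.13 and -0.01. Genes within these lists were spread widely. With naloxone their log2 ratios ran from -0.82 (Ccne2) to 0.52 (Rrm2) in S phase and from -0.17 (Cdk1) to 0.87 (Mki67) in G2/M. With DAMGO, Cdk1 was at -0.38 and Mki67 at 0.41. The 1010 genes with the longest transcripts, only 4 of the 36 members among them, had medians of 0.07 and 0.01 in D2. Whether transcript length had a part in the pattern was not tested. The D2 control library also stood apart in fibroblast and pericyte markers, which summed to 10 CPM with naloxone and 10.1 CPM with DAMGO in D2, against 20.1 CPM in the D2 control, and to 10 and 0.55 CPM in NSC, against 1.51 CPM in the NSC control. The part of that library and of those markers in the pattern was not tested.

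**Figure D5:**
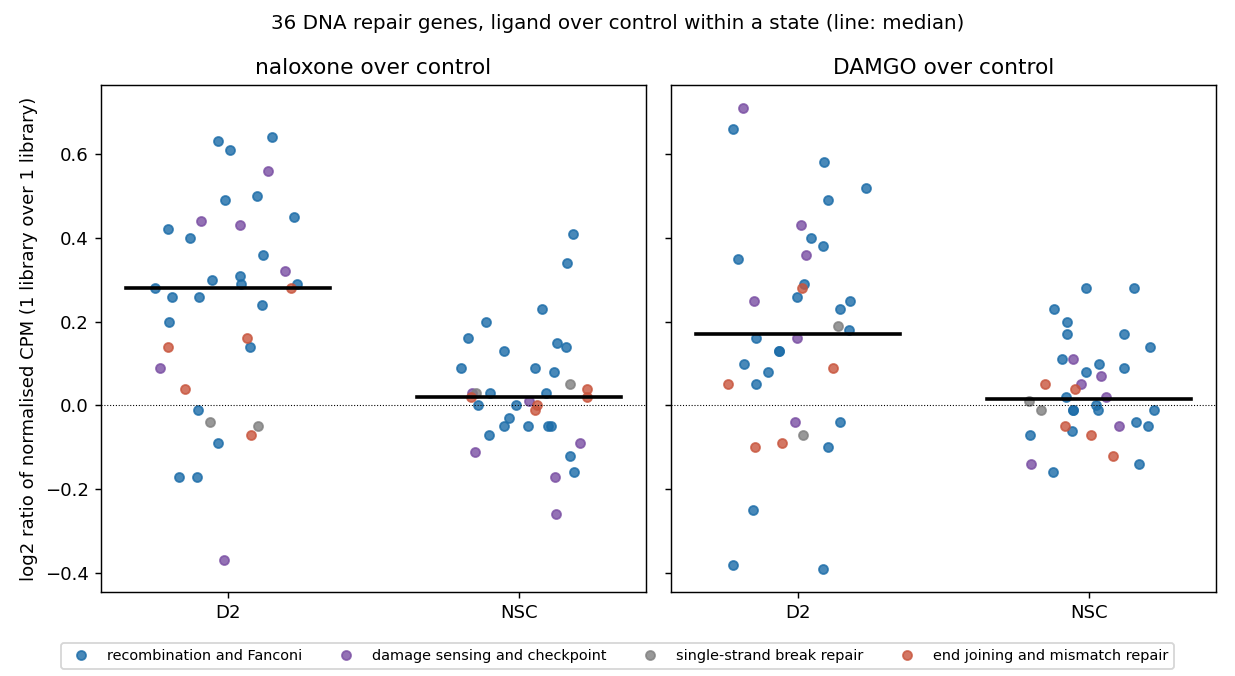
Log2 ratio of normalised CPM of naloxone (left panel) or DAMGO (right panel) over control (y axis) for each of the 36 genes in D2 and in NSC; a point is a gene coloured by role, and a line the median. The medians are 0.28 and 0.17 in D2 and 0.02 and 0.01 in NSC.

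The length that RSEM assigned to a gene, which depends on the isoforms it counted, differed between libraries for some members and moves TPM without moving counts. Atm had the widest range, 6102, 5186 and 10006 bases in D2 with naloxone, with DAMGO and without ligand, against 5756, 5418 and 5631 bases in NSC. Its level of 10.4, 11.8 and 4.53 TPM in those D2 libraries thus differed more than its counts of 240, 248 and 212. Brca1 was assigned 3986, 3593 and 3400 bases in D2, against 5974, 5506 and 6007 bases in NSC, so the D2 estimate leaned to shorter transcripts. Counts were fractional in at least 1 library for 19 members, and 13 share exonic bases with another annotated gene.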

How the data were processed

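RNA was extracted with Trizol and made into libraries with the Illumina TruSeq RNA Sample Prep Kit, per the labels' protocols. That kit, unlike its stranded version, does not mark strand, and strandedness was not measured here. The authors deposited for each library the expected counts and TPM values used here. Per the submitters' processing notes Bowtie and RSEM were used on build mm10; the sources used here state no versions, annotation or filters. Per the file headers the deposited tables also give a transcript length per gene in bases. Symbols and coordinates came from GENCODE M21 on the same build (28756 of 29267 identifiers matched). The deposited expected counts were rounded, which moved a total by at most 46.1. Genes averaging at least 10 counts (13216) were scaled by TMM, and edgeR 4.0.16 (R 4.3.3) gave the tests (additive model of state and ligand, 2 residual degrees of freedom, Benjamini-Hochberg over all genes, threshold 0.05). Within-state ratios used CPM with a prior count of 2. Intervals cover counting error only. Scripts were tested on simulated data. Alternatives were other scalings, no filter, DESeq2 1.42.0, limma 3.58.1 on log2(TPM + 1) or log2(TPM + 0.1), a fit of state alone, other role assignments and leaving out libraries. Members and gene lists were chosen with earlier results of these data known. All members were named, with those of the largest and smallest change in each role, and others, in full; of other repair lists the 2 lowest and 2 highest past the threshold, save some that are not reported here; Rad51d and Mus81, partner pairs and the regulators shown were chosen after their values were seen.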

Additional observations from a re-analysis of the deposited data

Results flagged for a closer look

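The naloxone and control libraries gave ratios of Atm on opposite sides of 1 in the 2 states. Its count ratio of naloxone over control, scaled by library size, was 1.36 in D2 (exact 95% interval 1.13 to 1.65, 240 against 212 counts) and 0.929 in NSC (interval 0.866 to 0.996, 1730 against 1459 counts). Each is a ratio of 1 library to 1 library, the intervals cover counting error only, and the difference between the states was not tested. Over both states Atm did not pass for naloxone against control (log2 fold change 0.06, edgeR adjusted p = 1). With DAMGO in D2 the ratio of Atm was 1.35 (interval 1.12 to 1.63), against the same control library.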

How the results depend on the processing

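Under every scaling, filter, tool and left-out library tried, 33 to 35 of the 36 members fell and 1 rose in D2, and 0 were called for any ligand contrast. Fancg (log2 fold change -0.39 to -0.23) and Xrcc5 (-0.19 to -0.12) lost their call in 10 of 17 settings each, and no other member lost its call or changed direction. The recombination and Fanconi median of -2.62 was -2.34 with limma on log2(TPM + 1). The end joining and mismatch median of -0.47 was -0.41 with upper quartile scaling, -0.57 and -0.58 with limma on log2(TPM + 1) and log2(TPM + 0.1), and -0.65 with Exo1 counted as a mismatch gene. The difference of -2.14 between the medians was -1.77 with limma on log2(TPM + 1) and -1.95 with Exo1 moved. Leaving out 1 library gave differences of -2.26 to -2.02. Upper quartile scaling moved the median of all genes by 0.06 on the log2 scale. The ligand condition stood as a term of the fit, which pairs the D2 and NSC libraries of 1 condition, and without that term 34 members fell and 1 rose. Depth limits the D2 values of Fancb (10 to 12 counts), Chek1 (20 to 23) and Palb2 (21 to 23), and all values of Rad51b (5 or 6 in D2).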
